A study of Mus musculus with 12 samples.

Results

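The extracellular matrix and stellate cell genes are a list of 38 genes that encode collagens, matrix glycoproteins, enzymes that remodel the matrix, and the cytoskeletal and identity markers of hepatic stellate cells. They are listed by gene symbol. Of the 38 genes, 36 had a probe with that gene's symbol on the array, with 76 probes in all, and 28 could be tested. Col6a3 and Loxl2 were not analysed here. The whole array held 19057 named genes, of which 8819 were tested.

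Liver RNA was measured in 12 samples from insulin-deficient mice of mixed strain background, on 1 Illumina bead array each. In 6 samples leptin had been infused into a brain ventricle (intracerebroventricular, icv) at 25 ng in 0.11 µL per hour, with harvest on day 10. The other 6 had received icv phosphate-buffered saline (PBS), at a rate and with a day of harvest that the labels leave out. Insulin deficiency was common to both groups, and the labels name neither its origin nor the animals' age and sex. The labels do not tie an array to 1 animal, so each p-value rests on the variation among arrays, part of which can be technical. Levels are normalized intensities on the log2 scale after background correction, differences are leptin minus PBS, and a gene passed when its limma p, adjusted by the Benjamini-Hochberg method over all 8819 genes, was under 0.05. A probe was detected on an array when its detection p was below 0.01. Each array detected between 13159 and 14431 of 45281 probes.

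The matrix around liver cells is laid down largely by hepatic stellate cells, which store vitamin A at rest and, once activated, become contractile, collagen-producing myofibroblasts. Collagen chains are modified and folded in the endoplasmic reticulum, cleaved outside the cell, and cross-linked by lysyl oxidases. Matrix metalloproteinases (MMPs) degrade the matrix and tissue inhibitors of metalloproteinases (TIMPs) hold them back. TGF-β is the best known signal for matrix production, and CCN2, formerly called CTGF, is a matrix-bound protein induced by TGF-β and by the YAP and TEAD transcription factors.

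Among 5 members that rose with leptin and kept their calls in every alternative that tested them, promoter sequences are shown for the 3 whose windows hold a match to a motif searched, a choice made after the search: Timp1, an inhibitor of metalloproteinases, Acta2, the smooth muscle actin of myofibroblasts, and Nid1, a basement membrane linker. The windows of the other members of that group, Col5a1 and Sparc, hold none of these motifs. The windows are RefSeq windows of build GRCm38.p6, from 250 bases before to 50 after a gene's start, read 5′ to 3′ on the gene's strand. Their positions are chrX:20869916-20870215 (plus strand) for Timp1, chr19:34255324-34255623 (minus strand) for Acta2 and chr13:13437352-13437651 (plus strand) for Nid1. Capitals mark matches to the motifs described after the sequences.
Timp1: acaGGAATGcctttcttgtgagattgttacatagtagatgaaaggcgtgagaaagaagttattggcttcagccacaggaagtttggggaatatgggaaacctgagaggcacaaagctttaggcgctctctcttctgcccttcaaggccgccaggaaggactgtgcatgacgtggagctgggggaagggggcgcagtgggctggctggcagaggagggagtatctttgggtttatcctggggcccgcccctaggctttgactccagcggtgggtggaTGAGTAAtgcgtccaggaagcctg
Acta2: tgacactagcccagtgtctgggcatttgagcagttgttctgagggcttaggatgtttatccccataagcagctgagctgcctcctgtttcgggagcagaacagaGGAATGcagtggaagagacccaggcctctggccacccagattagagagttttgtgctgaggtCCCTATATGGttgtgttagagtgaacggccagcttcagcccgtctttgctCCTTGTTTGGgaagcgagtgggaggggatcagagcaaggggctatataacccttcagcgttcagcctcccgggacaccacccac
Nid1: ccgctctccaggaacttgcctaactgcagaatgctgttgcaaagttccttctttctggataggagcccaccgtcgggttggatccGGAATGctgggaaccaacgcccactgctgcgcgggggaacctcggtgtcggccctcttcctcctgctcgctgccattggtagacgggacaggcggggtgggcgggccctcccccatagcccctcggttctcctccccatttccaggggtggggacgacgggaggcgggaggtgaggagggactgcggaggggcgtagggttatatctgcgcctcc

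Of the 28 tested members, 19 had a window in that table, as had 7 of the 9 called ones (not Loxl1 and Ccn2). Motifs were searched on both strands. The TEAD motif GGAATG was found in Timp1 (at -247 from the start), Acta2 (-146) and Nid1 (-165), thus in 3 of the 7, and 14.7% of all 32851 windows hold it. The Acta2 window holds CCCTATATGG at -84 and CCTTGTTTGG at -34, which are CArG boxes, the element bound by serum response factor, with 1 G or C in the A/T core. Among the 7 called members with a window, Acta2 and Timp3 hold such a box, as do 9.98% of all windows, a share that includes the 1.63% with a strict CArG box. The AP-1-like motif TGAGTAA was found in Timp1 at 27, as in 2.68% of windows, and the AP-1 motif TGANTCA in 0 of the 7, against 7.81% of windows. Among all 19 tested members with a window, 5 held the TEAD motif and 4 a CArG box with up to 1 G or C in the core. The AP-1 motif was in 1 of these 19, and the AP-1-like motif in 1. These matches are descriptions of sequence only.

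Leptin went with a rise of 8 among 28 tested members and a fall of 1, while 19 did not pass. Timp1, Acta2, Col5a1, Tgfbi, Sparc, Loxl1, Nid1 and Timp3 rose, and Ccn2 fell. Over all genes tested, 8.31% rose and 8.40% fell, 16.7% together. The members' median log2 difference was 0.57, beside 0.0039 over all genes tested, and 26 of 28 members had a difference above 0. The list was chosen with earlier results of these data known, and members had to pass a detection filter. These counts thus describe the tested members only. In whole liver, more cells of a type and more RNA per cell cannot be told apart.

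**Figure D1:**
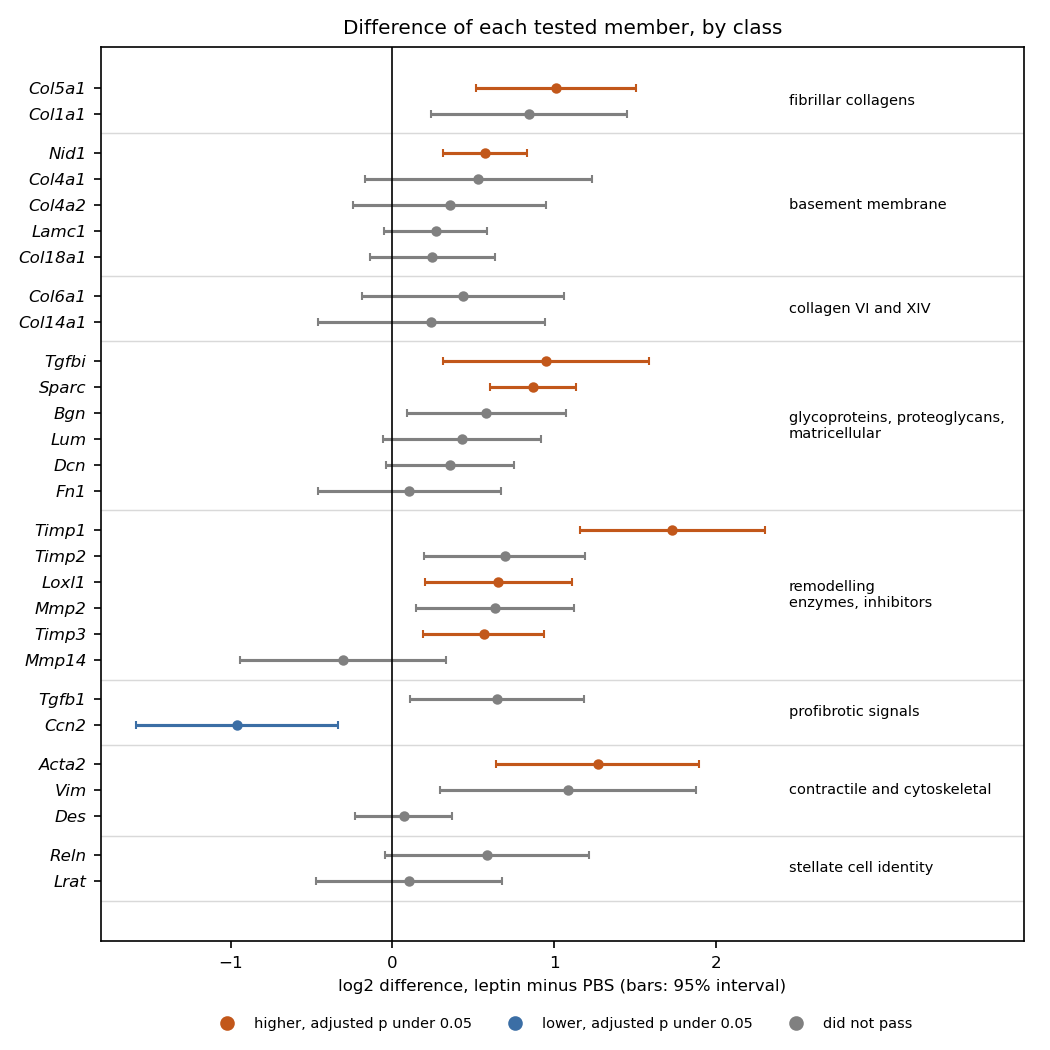
Log2 difference (leptin minus PBS, x axis) of each of the 28 tested members, grouped by class, with 95% intervals from limma (6 arrays a group). Orange points passed the threshold as higher, the blue point (Ccn2) as lower, and grey points did not pass. Timp1 lies farthest to the right at 1.73, and Ccn2 farthest to the left at -0.96.

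Among the fibrillar collagens, Col5a1 rose with leptin. It encodes a chain of type V collagen, which helps to start the assembly of type I fibrils. Its level had a lowest, median and highest value of 6.67, 7.14 and 7.24 on the leptin arrays, against 5.12, 6.13 and 6.74 on the PBS arrays. The groups overlapped only at leptin 4 and PBS 3. Means were 7.03 ± 0.25 with leptin and 6.02 ± 0.57 with PBS (SD, n = 6 each), and the log2 difference was 1.01 ± 0.23 (SE; limma's adjusted p = 0.0110), or 2.01-fold.

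Col1a1, the main chain of type I collagen, was detected on 4 leptin arrays and 1 PBS array. It passed the detection filter only through the leptin arrays, so its direction was partly set by that filter. Its level ran from 5.07 through a median of 5.44 to 6.90 with leptin, against 4.49, 4.74 and 5.55 with PBS. The highest values were on leptin 6 and leptin 3, and PBS 3 lay within the range of the leptin arrays. The log2 difference was 0.84 ± 0.28 and did not pass (adjusted p = 0.0550). It passed without leptin 1, leptin 4 or PBS 3 (adjusted p from 0.0318 to 0.0493) and with array weights (adjusted p = 0.0346). The other fibrillar chains were near the limit of the array: Col1a2 and Col5a2 were detected on 0 arrays and Col3a1 on 1, a leptin array, so these were not tested.

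Of 5 tested basement membrane genes, Nid1 rose and 4 did not pass. Nid1 encodes nidogen-1, which ties laminin to type IV collagen. Its level was 6.95, 7.003 and 7.16 (lowest, median, highest) with leptin, against 6.27, 6.37 and 6.95 with PBS. The leptin arrays lay close together and above 5 PBS arrays, while PBS 6 reached the lowest leptin arrays. The log2 difference was 0.57 ± 0.12 (adjusted p = 0.00782). The type IV collagen chains Col4a1 (0.53 ± 0.33, adjusted p = 0.284) and Col4a2 (0.35 ± 0.28, adjusted p = 0.401) varied widely within both groups. Col4a1 stood at 9.58 on leptin 4 and 9.56 on PBS 2, its highest values, and at 7.30 on PBS 1, its lowest. Col18a1, the precursor of endostatin (0.25 ± 0.18), and the laminin chain Lamc1 (0.27 ± 0.15) had adjusted p of 0.366 and 0.235, and another kept probe of each did not pass. Lamb1 was detected on 0 arrays.

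Collagens of the beaded filaments and of the fibril surface did not pass. For Col6a1, a chain of type VI collagen, the difference was 0.44 ± 0.29 (adjusted p = 0.321), and its other kept probe gave 0.59. Col14a1, a fibril-associated collagen, had a difference of 0.24 ± 0.33 (adjusted p = 0.649), with its lowest value on PBS 1 (5.62) and its highest on PBS 3 (8.04). Without PBS 1 its difference was -0.01. Col6a2 was detected on 2 arrays, both leptin, and was not tested.

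Sparc and Tgfbi rose among the 6 glycoproteins and proteoglycans, and 4 did not pass. Sparc, or osteonectin, is a collagen-binding matricellular protein. Its level was 9.53, 9.82 and 10.05 with leptin, against 8.74, 8.87 and 9.20 with PBS. Every leptin array lay above every PBS array, which held for 2 members, Sparc and Timp1, and for 3.15% of all genes tested. No member had every leptin array below every PBS array, as 4.13% of all genes did. The log2 difference was 0.87 ± 0.12 (adjusted p = 0.000790), or 1.82-fold, and the 95% interval of the log2 difference was 0.60 to 1.13. All 3 kept Sparc probes were called higher, at 0.49 to 0.87. The dimmest of them was detected on 5 leptin arrays and 0 PBS arrays, a rise of at least 1.10-fold against the lowest detected signal per array. That probe passed the detection filter only through the leptin arrays, so its direction was partly set by the filter.

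Tgfbi, a TGF-β-induced adhesion protein, was at 9.78, 10.43 and 10.93 with leptin, against 8.58, 9.57 and 10.26 with PBS. PBS 4 and PBS 1 were lowest, and PBS 2, 3 and 6 overlapped the leptin arrays. The difference was 0.95 ± 0.30 (adjusted p = 0.0428), and its other probe was called too, at 1.08. Leaving out leptin 1, 2, 3, 4 or 5 or PBS 1, 4 or 5, each by itself, ended the call (adjusted p from 0.0521 to 0.0897). So did testing all 19057 named genes, by 1 probe each, with no detection filter (adjusted p = 0.101).

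The small leucine-rich proteoglycans that coat collagen fibrils did not pass. Biglycan (Bgn) had a difference of 0.58 ± 0.23 (adjusted p = 0.0952), lumican (Lum) of 0.43 ± 0.23 (adjusted p = 0.212) and decorin (Dcn) of 0.36 ± 0.19 (adjusted p = 0.203). For Lum, 1 of 2 kept probes was called higher (0.57, adjusted p = 0.0499 over all kept probes). Fibronectin (Fn1), which hepatocytes also make, was at 11.52, 11.84 and 12.15 with leptin, against 10.85, 11.91 and 12.44 with PBS. These ranges lay one within the other, and the difference was 0.10 ± 0.26 (adjusted p = 0.825, 95% interval -0.46 to 0.67).

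The inhibitors of matrix degradation held the greatest rise of the list. Timp1 was at 5.85, 6.92 and 7.82 with leptin, against 4.77, 5.14 and 5.58 with PBS. It was detected on all 6 leptin arrays and on 2 PBS arrays, and every leptin array lay above every PBS array. Means were 6.88 ± 0.65 with leptin and 5.15 ± 0.33 with PBS (SD, n = 6 each), a difference of 1.73 ± 0.27 (SE, adjusted p = 0.00123), or 3.32-fold. Its other kept probe gave 1.81. Both probes passed the detection filter only through the leptin arrays, so their direction was partly set by it.

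Timp3, the inhibitor that stays bound to the matrix, rose less, by 0.56 ± 0.17 (adjusted p = 0.0399). It stood at 8.32, 8.73 and 9.09 with leptin, against 7.85, 8.05 and 8.80 with PBS, where PBS 6 and, just above leptin 4, PBS 3 lay within the leptin range. Its call ended when leptin 1, 2, 3, 5 or 6 or PBS 1, 2, 4 or 5 was omitted (adjusted p from 0.0559 to 0.0847). The call also ended with no detection filter (adjusted p = 0.0742) and by the authors' deposited p-values, adjusted here (adjusted p = 0.0665). Timp2, which both inhibits and helps to activate MMP-2, had a difference of 0.69 ± 0.23 and did not pass (adjusted p = 0.0547). It passed without PBS 3 or PBS 6 (adjusted p = 0.0130 and 0.0464) and with array weights (adjusted p = 0.0359).

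Among the enzymes, Loxl1, a lysyl oxidase that cross-links elastin, rose by 0.65 ± 0.21 (adjusted p = 0.0494). Its level was 5.81, 6.33 and 6.65 with leptin, against 4.93, 5.71 and 6.18 with PBS, with an overlap of both groups between 5.81 and 6.18. Omitting leptin 1, 2, 3, 5 or 6 or PBS 1, 4, 5 or 6 ended the call (adjusted p from 0.0574 to 0.102), and so did 5 other settings, with adjusted p from 0.0505 (variance trend) to 0.102 (no detection filter). Mmp2, the type IV collagenase, had a difference of 0.64 ± 0.23 (adjusted p = 0.0689). Its activator Mmp14 was the other member below 0 beside Ccn2, at -0.31 ± 0.30 (adjusted p = 0.505, 95% interval -0.94 to 0.33). Lox was detected on 1 array, of the leptin group, and was not tested.

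Ccn2 went the other way and fell with leptin. Its level was 8.74, 9.89 and 10.48 with leptin, against 10.09, 10.75 and 11.26 with PBS. Leptin 3 was lowest, PBS 2, 3 and 6 were highest, and leptin 4 overlapped the lower PBS arrays. Means were 9.76 ± 0.60 with leptin and 10.72 ± 0.53 with PBS (SD), a difference of -0.96 ± 0.29 (SE, adjusted p = 0.0369), and both probes were called lower. When leptin 1, 2, 3 or 5 or PBS 2, 3 or 6 was omitted the call ended (adjusted p from 0.0509 to 0.0776), as it did with no detection filter (adjusted p = 0.0883).

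Tgfb1, the ligand, had a difference of 0.65 ± 0.25 that did not pass (adjusted p = 0.0899). It was at 6.798, 7.33 and 8.21 with leptin, against 6.22, 6.68 and 7.64 with PBS, with leptin 4 and PBS 2 the highest of their groups. Without PBS 2 it passed (difference 0.83, adjusted p = 0.0194). Pdgfrb, the PDGF receptor of stellate cells, was detected on 0 arrays.

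**Figure D2:**
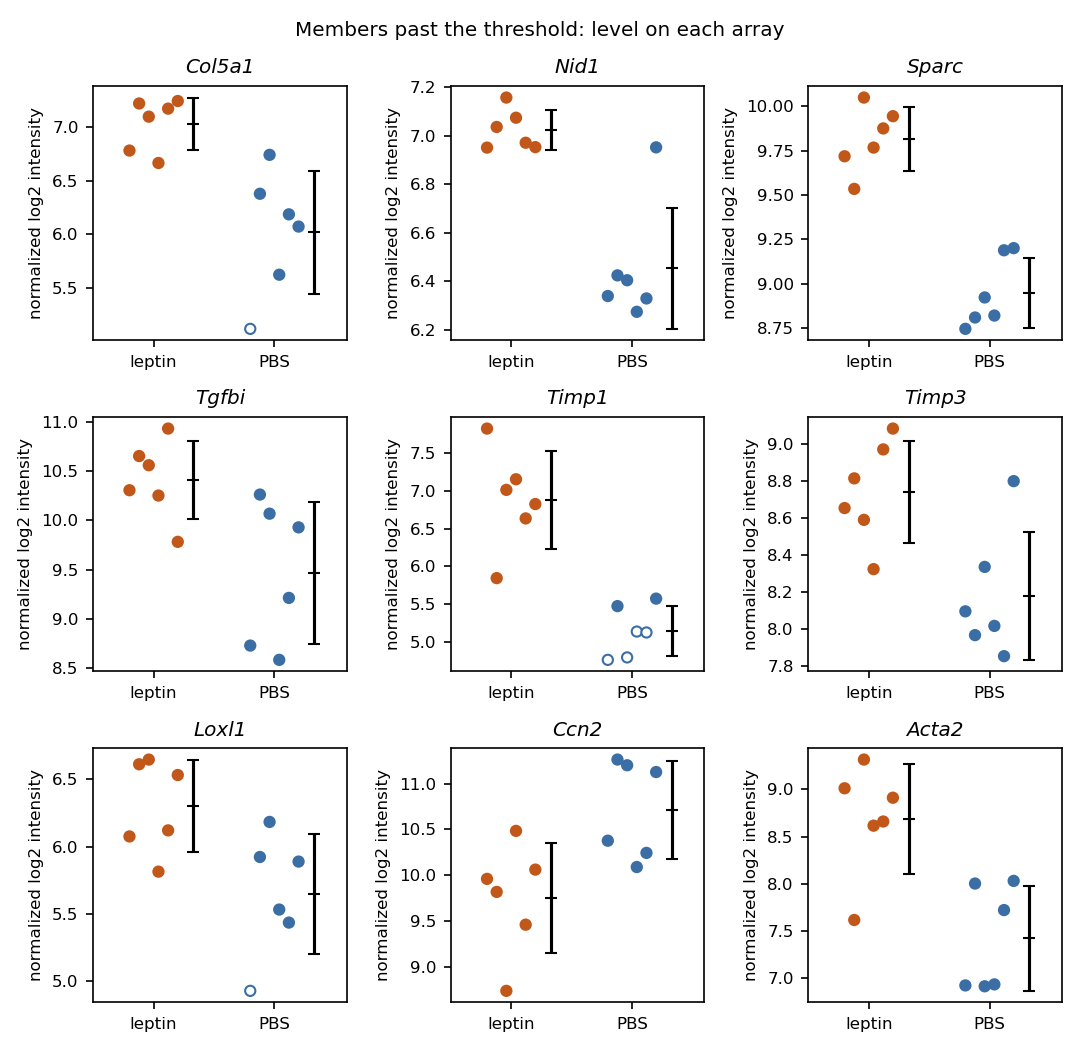
Normalized log2 intensity (y axis) of the 9 called members on each of 6 leptin arrays (orange, left) and 6 PBS arrays (blue, right), with each group's mean and SD in black; open circles mark arrays where the probe was not detected. Sparc and Timp1 show no overlap between the groups, and in the Ccn2 panel the PBS arrays lie higher.

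The contractile gene Acta2 rose. Its most abundant probe read 7.62, 8.79 and 9.31 with leptin, against 6.91, 7.33 and 8.03 with PBS. Leptin 2 was the one leptin array within the PBS range. Means were 8.69 ± 0.58 with leptin and 7.42 ± 0.56 with PBS (SD), a difference of 1.27 ± 0.29 (SE, adjusted p = 0.0112), or 2.41-fold. The other 3 kept probes of Acta2 did not pass, with differences from 0.33 to 0.58, and the mean of all 4 gave 0.68 (adjusted p = 0.0256). The probes at 0.33 and 0.58 were each detected on 5 leptin arrays and 2 PBS arrays. They passed the detection filter only through the leptin arrays, so their direction was partly set by it, and both enter that mean.

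Vim, the intermediate filament of mesenchymal and blood cells, had a difference of 1.08 ± 0.37 (adjusted p = 0.0580). It was at 7.48, 8.05 and 9.80 with leptin, against 6.84, 7.13 and 8.30 with PBS. The highest array of each group was again leptin 4 and PBS 2, and Vim passed without leptin 2 or PBS 2 (adjusted p = 0.0393 and 0.0247). Des, the muscle-type intermediate filament of rodent stellate cells, had a difference of 0.07 ± 0.14 (adjusted p = 0.778, 95% interval -0.23 to 0.37). Tagln was detected on 0 arrays.

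The markers of stellate cell identity did not pass. Lrat, which esterifies retinol for storage, was at 6.05, 6.97 and 7.16 with leptin, against 5.73, 6.72 and 7.29 with PBS. The groups lay over each other, with a difference of 0.10 ± 0.27 (adjusted p = 0.828, 95% interval -0.47 to 0.68). Reln, a secreted glycoprotein made in liver by stellate cells, was at 9.55, 10.38 and 10.69 with leptin, against 8.83, 9.49 and 10.49 with PBS, a difference of 0.58 ± 0.29 (adjusted p = 0.186). Of 16 further stellate markers 15 were on the array and 10 were tested. With all arrays 0 were called by limma, 2 had an unadjusted p under 0.05, and 0 were called by the authors' p-values. Their median difference was 0.27, with Colec11, a collectin of stellate cells, at 0.64 ± 0.22 (adjusted p = 0.0637). Tcf21 was at 0.62 ± 0.24 (adjusted p = 0.0891), Cygb at 0.61 ± 0.28 (adjusted p = 0.157), Ngfr at 0.37 ± 0.20 and Angptl6 at 0.35 ± 0.22. Ecm1 was at 0.19 ± 0.24, Rgs5 at 0.03 ± 0.21, Sod3 at 0.03 ± 0.27, Pdgfra at -0.05 ± 0.23 and Adamtsl2 at -0.24 ± 0.35. Colec11 passed without leptin 6, PBS 3 or PBS 6 (adjusted p from 0.0389 to 0.0452), and the list also had 1 gene called without leptin 4 and 1 without PBS 3 and leptin 4 together. Their summed intensity ran from 2728 to 5017 on the leptin arrays, against 1785 to 4795 on the PBS arrays. Hand2, Lhx2, Gfap, Bmp10 and Nes were detected on 0 arrays. So the stellate cell label rested on Lrat, Reln, Des, Dcn and these 10 genes, while Pdgfrb, Hand2 and Lhx2 were not detected. Whether the identity markers differ less than the matrix genes was not tested.

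The arrays differed in how they carried the list. PBS 1 had the lowest value of all 12 arrays for 18 of the 28 members, and PBS 4 for 5. Relative to each member's mean over 12 arrays, the median deviation was -0.96 on PBS 1, -0.45 on PBS 4 and -0.34 on PBS 5, but -0.01 on PBS 2, 0.17 on PBS 3 and -0.06 on PBS 6. On the leptin arrays it ran from 0.13 (leptin 4) to 0.47 (leptin 3), so PBS 3 lay within the leptin range. PBS 1 also had the fewest detected probes, 13159. Without it the members' median difference was 0.42, 23 of 28 were above 0, and 5 were called higher and 1 lower. Over all genes tested, 6.19% were then called higher and 6.95% lower. The count of members called higher was also 5 without leptin 3, leptin 5, PBS 4 or PBS 5, each left out by itself, beside 5.73% to 6.18% of all genes. PBS 3 had the highest value of all arrays for 5 members and leptin 3 for 7. Without PBS 3 and leptin 4 together, a choice made after seeing the data, 13 members were called higher, among them Col1a1, Bgn, Timp2, Mmp2 and Reln. In that setting 9.23% of all genes tested were called higher.

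**Figure D3:**
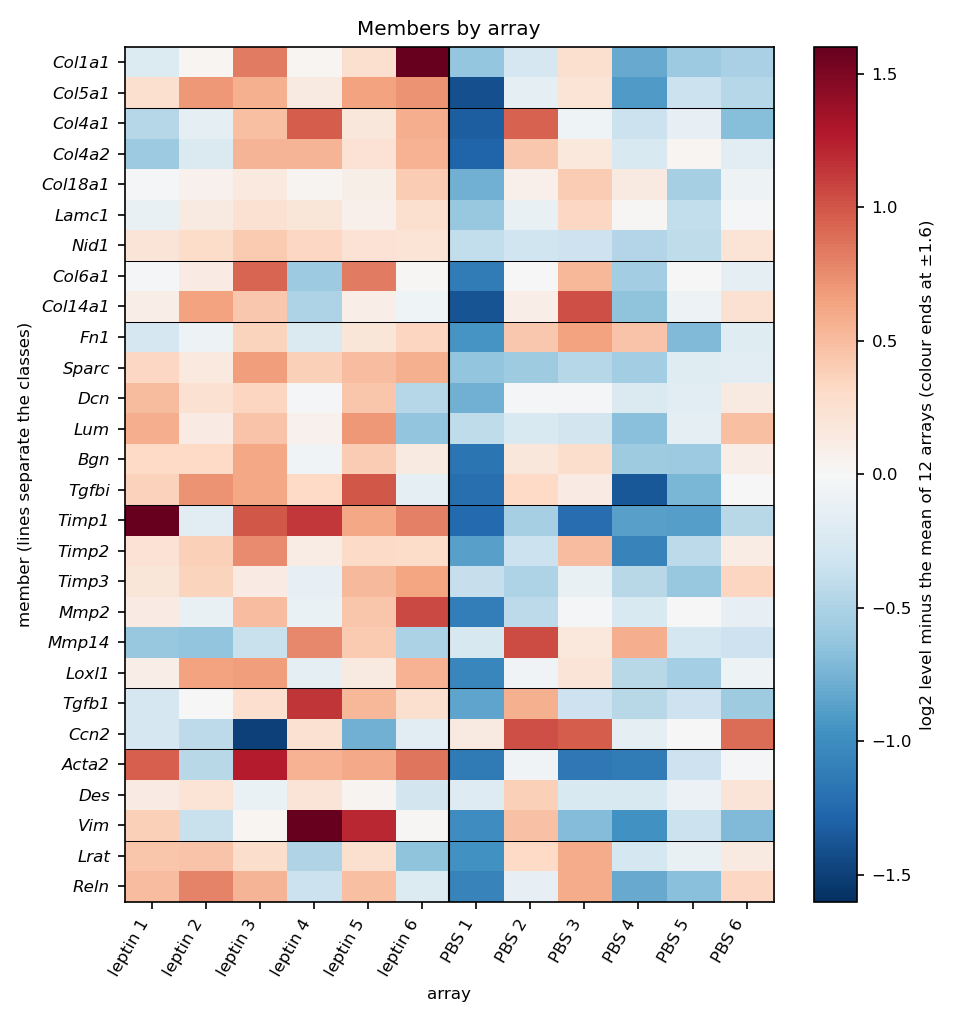
Level of each of the 28 tested members (down the page, by class) on each array (across), as the log2 level minus the member's mean over 12 arrays, in colour from blue (below) to red (above). PBS 1 is blue for most members, the leptin arrays are mostly red, and Ccn2 is red on PBS 2, 3 and 6.

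Among 14 tested genes that process collagen, 3 rose and none fell, and the list's median difference was 0.09. For this list and those that follow, the shares over all genes tested were 8.31% higher and 8.40% lower. Serpinh1, the collagen chaperone HSP47, rose by 1.10 ± 0.17 (adjusted p = 0.00123), and every leptin array lay above every PBS array. The same held for Pcolce, which enhances cleavage of the procollagen C-terminus (0.84 ± 0.23, adjusted p = 0.0236), and for Ppib, a peptidyl-prolyl isomerase of the collagen-modifying complex (0.83 ± 0.16, adjusted p = 0.00481). With no detection filter, Pcolce was not called (adjusted p = 0.0528).

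Of 14 tested TGF-β signalling genes, 0 were called by limma with all arrays or by the authors' p-values, and 3 had an unadjusted p under 0.05. Their median was 0.18, with Skil, a repressor of SMAD proteins, at 0.82 ± 0.28 (adjusted p = 0.0564). Skil passed with the mean of its kept probes and without leptin 1, leptin 3 or PBS 2 (adjusted p from 0.0273 to 0.0476). The list also had 1 gene called with array weights and 1 without PBS 3, and 2 without PBS 3 and leptin 4 together. Of the genes of PDGF and other stellate signals, 2 of 11 rose and 9 did not pass. Axl, the receptor of the growth factor Gas6, rose by 1.18 ± 0.23 (adjusted p = 0.00431), without overlap between groups. Hgf, the hepatocyte growth factor, rose by 0.75 ± 0.20 (adjusted p = 0.0244), a call lost without leptin 1, leptin 5 or PBS 5 and in 2 other alternatives (adjusted p from 0.0503 to 0.0676).

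Other matrix proteins rose in 3 of 16 tested cases and fell in 1, with a median of 0.41. Hspg2, the basement membrane proteoglycan perlecan, rose by 0.72 ± 0.16 (adjusted p = 0.00937). Fbln2 (0.95 ± 0.29) and Emilin1 (0.66 ± 0.20), both proteins of elastic fibres, rose as well. Fbln2 lost its call in 10 alternatives, among them leaving out leptin 2, 3, 5 or 6 or PBS 1, 2, 4 or 5, and Emilin1 in 11, among them leaving out leptin 1, 3, 4 or 5 or PBS 1, 4 or 5. Lamb3, a laminin chain of epithelia, was detected on 0 leptin arrays and on all 6 PBS arrays, and was at least 1.84-fold lower with leptin (adjusted p = 0.000244). Fbln2 passed the detection filter only through the leptin arrays, and Lamb3 only through the PBS arrays, so their directions were partly set by it.

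Of 12 matrix receptors, the integrin subunit Itgb5 rose (0.70 ± 0.13, adjusted p = 0.00431) and Sdc1, a cell-surface heparan sulphate proteoglycan of hepatocytes, fell (-0.94 ± 0.16, adjusted p = 0.00260). Of 13 other remodelling enzymes, the lysosomal protease Ctsb rose (0.51 ± 0.12, adjusted p = 0.0152) and Ctsl fell (-0.96 ± 0.17, adjusted p = 0.00301). Of 12 cytoskeletal genes, S100a6 (1.21 ± 0.34), the actin cross-linker Flna (0.87 ± 0.22) and Smtn (0.63 ± 0.20), a smooth muscle protein, rose, and 9 did not pass. S100a6 lost its call in 10 alternatives, among them leaving out leptin 1 or 5 or PBS 3, 4, 5 or 6, and Smtn in 11, among them leaving out leptin 2, 3, 4, 5 or 6 or PBS 1, 2, 4 or 6.

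Markers of other liver cells moved in the same comparison. Of 8 lymphocyte markers on the array, Cd3d (1.07 ± 0.29), Cd79b (0.93 ± 0.20), Cd3g and Cd3e were tested and rose, and 4 did not pass the detection filter. Cd3g, Cd3e and Cd79b passed that filter only through the leptin arrays, so their direction was partly set by it. Cd3g and Cd3e were detected on 0 PBS arrays and were higher with leptin by at least 1.12-fold and 1.04-fold. The Cd3d call was lost without background correction and with no detection filter (adjusted p of 0.0530 to 0.0599). Their summed intensity was 161 to 408 with leptin and 108 to 127 with PBS, and Cd8a, Cd4 and Ptprc were detected on 0 arrays. Of 11 tested Kupffer cell and macrophage genes, 4 rose, Timd4 (1.06 ± 0.32), C1qa (1.003 ± 0.25), Clec4f (0.97 ± 0.18) and C1qc (0.88 ± 0.27), with a median of 0.88 and sums of 10862 to 38654 with leptin against 7425 to 18458 with PBS. Timd4 lost its call in 14 alternatives, among them leaving out leptin 1, 3 or 5 or PBS 1, 3, 4, 5 or 6, and C1qc in 12, among them leaving out leptin 1, 3, 4 or 5 or PBS 1, 3, 4, 5 or 6. Cd5l was detected on 0 arrays. C1qc was highest on leptin 4 (12.37) and PBS 2 (11.28), the arrays on which Tgfb1 and Vim were highest. In each group the same arrays were highest for Cdh5, Flna, S100a6 and Col4a1, and were not for Clec4f. The part of Kupffer cells and macrophages in the values of Tgfb1 and Vim was not tested.

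Of 11 tested sinusoidal endothelial genes, Cdh5 (1.03 ± 0.23), Stab2 (0.58 ± 0.15) and Gpr182 (0.51 ± 0.14) rose, and Kdr was detected on 0 arrays. The other 8 did not pass, with differences from -0.06 (Oit3) to 0.50 (Fcgr2b), and the list's median was 0.33. Gpr182 lost its call by the authors' p-values and without PBS 3 and leptin 4 together (adjusted p of 0.0520 to 0.0636). Their sums were 8577 to 11079 with leptin and 5838 to 10821 with PBS. Of 5 tested genes of portal fibroblasts and mesothelium, Thy1 rose (1.46 ± 0.28, adjusted p = 0.00379) with no overlap between groups, and Fbln2 rose with overlapping groups. Entpd2 (0.38 ± 0.19), Cd34 (0.21 ± 0.18) and Upk3b (0.04 ± 0.30) did not pass. That list's sums were 356 to 571 with leptin and 239 to 332 with PBS, and Eln, Gas1, Pi16, Msln and Gpm6a were detected on 0 arrays. Thy1 was highest on leptin 4 (7.63), as were Cd3d (7.43), Cd3g (6.28) and Cd3e (6.05). This was not particular to lymphocyte genes: Serpinh1, Pcolce, Ppib, Flna and Cdh5 were also highest on leptin 4, while Clec4f, Stab2 and Hspg2 were not. The part of lymphocytes in the Thy1 value was not tested. Of 8 smooth muscle genes only Smtn and Mylk were tested, and Myh11, Cnn1, Lmod1 and Myocd were detected on 0 arrays. Mylk did not pass, at -0.19 ± 0.21 (adjusted p = 0.556). The sums were 854 to 1466 with leptin and 930 to 1946 with PBS. Most of each sum came from Mylk, with means of 10.1 with leptin and 10.3 with PBS, beside 6.8 and 6.2 for Smtn. Of 2 tested bile duct genes none was called, none had an unadjusted p under 0.05, and sums were 106 to 257 with leptin and 115 to 780 with PBS, with Krt19, Epcam, Cftr and Prom1 detected on 0 arrays. Of 9 tested hepatocyte genes, Ass1 of the urea cycle (-0.72 ± 0.13) and Alb (-0.83 ± 0.25) fell. The other 7 did not pass, with differences from -0.39 (Cps1) to 0.19 (Ttr), and that list's median was -0.08. The sums of the hepatocyte genes were 143240 to 173350 with leptin and 160630 to 191920 with PBS. The Alb probe was dim, at 6.27 ± 0.19 with leptin and 7.10 ± 0.66 with PBS (SD, n = 6 each), and how well it reads albumin mRNA was not tested. The Alb call was lost in 12 alternatives, among them leaving out leptin 2, 3, 4, 5 or 6 or PBS 1, 3, 4, 5 or 6. The part of cell composition in the members' differences was not tested.

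**Figure D4:**
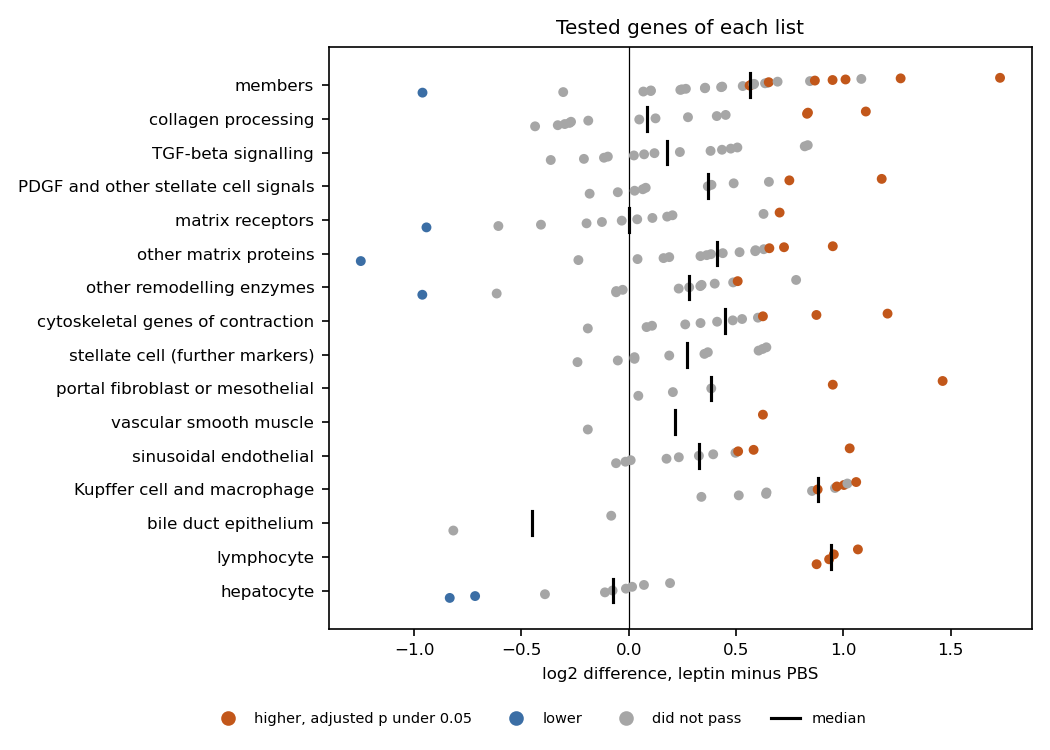
Log2 difference (leptin minus PBS, x axis) of every tested gene of the member list and of each other list (rows), with the list's median as a black line; orange genes passed as higher, blue as lower, and grey did not pass. The lymphocyte genes that passed the detection filter are orange, no further stellate cell marker is, and the members' median stands at 0.57.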

How the data were processed

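Liver RNA of 6 leptin and 6 PBS samples was hybridized to Illumina Mouse-6 V2 bead arrays, per the series' design text. The deposited intensity values (AVG_Signal, with a detection p-value per probe, per the file headers) had 1 common distribution on all arrays and still held background, their minimum being 95.9. The deposited log2 values of the series matrix were log2 of these signals, uncentred. The authors' Cyber-T p-value and log2 difference (leptin minus PBS), per the file headers, served as an alternative. Those p-values were adjusted here by the Benjamini-Hochberg method over the 15062 probes that passed the detection filter. The authors' own label of change was up for Col5a1, Sparc, Timp1 and Acta2, and none for the other tested members. Summarising software was not given in the sources used here.

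Of 45281 probes, 34885 had 1 gene symbol in the platform annotation, 18 several and 10378 none here. Signals were processed with limma's neqc (offset 16), which makes folds of dim genes too small. Probes detected (p below 0.01) on at least 3 arrays were kept, 15062 in all, and each gene was given by its kept probe of highest mean. Groups were compared with limma 3.58.1 in R 4.3.3 (lmFit, eBayes, two-sided), without a block. The fit was tested on simulated data. The named genes were all members, and up to 4 genes past the threshold of each other list. Further genes named were chosen after their values were seen. Members and lists were chosen with earlier results of these data known. Alternatives changed the background correction, offset, filter, probe rule, variance model, array weights and p-values, added a replicate block, or left out arrays. Equal replicate numbers did not pair samples, with correlations of residuals from -0.32 to 0.46. The number of arrays limits precision, and slides or dates are not given here, so batches were not tested.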

Additional observations from a re-analysis of the deposited data

Results flagged for a closer look

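In 2 of the 56 groups of 6 arrays checked among the members, 1 array stood apart from the other 5 by Dixon's test at its 95% value, the gap to the nearest array being 0.778 and 0.636 of the group's range. Chance gives such a gap in about 1 of 20 groups. Nid1 on PBS 6 was 6.952, where the next PBS array was 6.425. Tgfb1 on PBS 2 was 7.64, where the next PBS array was 6.738, and its difference passed without that array.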

How the results depend on the processing

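Over the 22 alternatives, the calls of Timp1, Acta2, Col5a1, Sparc and Nid1 were kept in each one that tested them; Timp1 and Col1a1 could not be tested when detection on 9 arrays was required. On the deposited values without background correction their differences were 0.72, 0.92, 0.47, 0.75 and 0.29. The count of members called higher, 8, was 5 with no filter on dim probes, 13 without PBS 3 and leptin 4 together (added after seeing the data) and 5 to 10 with each array left out in turn. In these settings 2.96%, 9.23% and 5.73% to 9.16% of all genes were called higher. The count of members called lower, 1, was 0 with no filter, 0 with a replicate block and 0 to 1 with arrays left out. There, 3.43%, 7.81% and 6.21% to 8.82% of all genes were called lower. With the authors' p-values, 486 genes in all were called lower, against 741. Genes called ran from 505 to 808 higher and from 548 to 778 lower with arrays left out. Of 614 results of single members, 43 lost a call, 18 gained one and 5 changed sign. Those 5 were Col14a1 (-0.0111), Fn1 (-0.0744) and Lrat (-0.0815) without PBS 1, Fn1 (-0.0283) without PBS 5 and Des (-0.0089) without PBS 3 and leptin 4 together. With arrays left out in turn, Col14a1 ran from -0.0111 to 0.4714, Fn1 from -0.0744 to 0.2422 and Lrat from -0.0815 to 0.2432. With the replicate block 11 members were called higher, 3 of them gained (Col1a1, Timp2 and Mmp2), and Ccn2 lost its call (adjusted p = 0.0664). Of all genes, 7.88% were called higher with the block. The block also called 2 TGF-β signalling genes, among them Ltbp4 (adjusted p = 0.0308). Of 6 leptin arrays, 4 did not correlate best with the PBS array of their own number. Of 30 called genes of the other lists, 19 kept their calls throughout. The cause of these changes was not tested. Signals near background limit what the untested members can show.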
